A study of Homo sapiens with 8 samples.

Results

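The genes described here are the human mitochondrial ribosomal protein genes, taken by symbol as every gene named MRPL or MRPS followed by a number and at most 1 letter. Of the 19475 entries of the expression table, 78 met this rule, 49 named MRPL and 29 named MRPS. The rule itself used no measured value, but the family was chosen with earlier results of these data known. They were followed in HCT116 cells, a human colorectal carcinoma line, which received either PBS (Control) or Fusobacterium nucleatum at 100 bacteria per cell (FUSO) for 2 h and were grown in McCoy 5A medium with serum. Fragments of poly(A) RNA were sequenced after capture with an antibody to N6-methyladenosine (m6A; IP) and without capture (input), with 2 libraries for each of Control input, Control IP, FUSO input and FUSO IP, 8 samples in all. The cells were an established line grown alone, without immune or stromal cells.

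Mitochondria make a small set of respiratory chain proteins on their own ribosome, the mitoribosome, whose RNA is transcribed from mitochondrial DNA but whose proteins are encoded in the nucleus, translated in the cytosol and imported. Some of these proteins have a counterpart in the bacterial ribosome and others exist only in mitochondria, and both kinds are found in the large subunit, which joins amino acids, and in the small subunit, which reads the mRNA. m6A is written on nuclear transcripts mostly in the motif DRACH, of which GGAC is a frequent form, and it is enriched around stop codons and in long exons. It can alter the stability and translation of the mRNA that carries it.

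To show the sequences behind the peaks, the GGAC nearest to the middle of the region is given for the 8 genes with the lowest peak p-values in regions found in all 4 lists. The GGAC is in capitals and its A is the 11th of 21 bases, 5′ to 3′ on the strand of the gene. Antibody peaks are far wider than a motif, so a printed motif marks a candidate base and not a measured one. Positions are on GRCh37 (hg19), read from that assembly. The windows of MRPL36 (chr5:1798807-1798827, minus strand), MRPL17 (chr11:6703403-6703423, minus), MRPL14 (chr6:44081679-44081699, minus) and MRPL32 (chr7:42974631-42974651, plus) lay in coding sequence (CDS). The windows of MRPL27 (chr17:48445422-48445442, minus), MRPL57 (chr13:21751796-21751816, plus), MRPL12 (chr17:79674276-79674296, plus) and MRPS34 (chr16:1822165-1822185, minus) lay in the 3′UTR.
MRPL36: cgctgcaaGGACtgttacctg
MRPL17: ttgcggcaGGACctcaggcaa
MRPL14: ctcattgaGGACaacgggaac
MRPL32: agccttttGGACagtatcttt
MRPL27: aggccatcGGACagagactgg
MRPL57: ctaaaattGGACatttaagcg
MRPL12: agctcggaGGACttgtgttca
MRPS34: ggcagtggGGACcttattgat

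The other set shown is the coding part of the regions with a peak in both Control lists and in neither FUSO list, followed by a window of the region with the reverse pattern. The stretch of MRPL58 (chr17:73008782-73008909, plus strand, 128 bases) and that of MRPL38 (chr17:73900647-73900956, minus strand, 221 bases from 2 exons joined) both begin at the annotated start codon. Capitals mark GGAC in MRPL38, while MRPL58 holds none there. The window of MRPS10 (chr6:42175787-42175807, minus strand) lies in the 3′UTR, where the region has no GGAC, and capitals mark the DRACH match nearest to its middle.
MRPL58: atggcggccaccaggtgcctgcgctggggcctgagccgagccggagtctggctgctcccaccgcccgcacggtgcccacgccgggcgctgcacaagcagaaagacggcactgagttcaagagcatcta
MRPL38: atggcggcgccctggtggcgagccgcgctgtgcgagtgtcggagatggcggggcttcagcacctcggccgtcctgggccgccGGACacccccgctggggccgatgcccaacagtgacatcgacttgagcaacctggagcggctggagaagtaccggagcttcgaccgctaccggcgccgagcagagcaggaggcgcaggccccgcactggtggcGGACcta
MRPS10: acatgagcAAACCactttgac

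Of the labelled cell type's markers, KRT8, KRT18, KRT19 and EPCAM were at 162 to 2286 FPKM and CDH1 at 11.9 to 13.6 FPKM in the input libraries, whereas CEACAM5 and CDX1 were listed at 0 in all 4, VIL1 reached at most 0.0180 FPKM and CDX2 was at 2.73 to 3.73 FPKM. Of 8 markers of leukocytes, fibroblasts and endothelium, 6 were at or below 0.123 FPKM, while CD68 was at 7.15 to 9.30 and COL1A1 at 3.78 to 5.72 FPKM. Some of these markers also separated the groups: KRT8, KRT18 and CDX2 were lower in both FUSO libraries than in both Control libraries, while EPCAM, CDH1 and COL1A1 were higher in both, and their part in the results for the members was not tested. The files gave no counts, so the depth of the libraries was unknown and no counting error could be attached to a value. FPKM, fragments scaled by transcript length and by the mapped total, allow genes of unequal length to be compared, but they are shares of a library: in bulk RNA, fewer expressing cells and less RNA per cell cannot be told apart. Exon bases were shared with an annotated gene on the same strand for 15 members and on the opposite strand for 22, 31 in all, and whether fragments were counted by strand was not given in the sources used here.

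All 78 genes were expressed and passed the filter of a mean of 1 FPKM over the 4 input libraries. Their mean levels ran from 8.83 to 248 FPKM with a median of 53.1 FPKM, against 9.45 FPKM over the 11088 genes tested, and 12% of all genes tested lay above the median of the members. The highest was MRPL51, a mitochondria-specific protein of the large subunit, at 236 and 252 FPKM in Control and 255 and 249 FPKM in FUSO. It was followed by MRPL27, whose bacterial counterpart reaches into the peptidyl transferase centre, at 202 and 179 FPKM in Control and 166 and 177 FPKM in FUSO. Next came MRPL12, which forms the stalk that receives translation factors, at 183 and 196 FPKM in Control and 165 and 159 FPKM in FUSO. The groups overlapped for MRPL51 and did not for MRPL27 and MRPL12, where both Control libraries were the higher ones.

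The 5 highest ended with MRPS34, which stabilises the small subunit, at 161, 159, 131 and 141 FPKM, and MRPL3, a protein of the catalytic core, at 139, 136, 133 and 128 FPKM, in the order Control 1, Control 2, FUSO 1 and FUSO 2 that is kept from here on. MRPL3 shared 242 exon bases with a non-coding gene on the opposite strand and MRPS34 shared 325 with EME2. MRPL12 shared 701 with another protein-coding gene on the same strand. At the other end stood MRPL19 at 9.41, 8.61, 8.41 and 8.88 FPKM, MRPS11 at 10.2, 9.61, 9.10 and 9.44 FPKM and MRPS25 at 11.9, 10.9, 10.7 and 11.5 FPKM. MRPS18B and MRPS14 lay just above them, between 11.4 and 13.4 FPKM in every library. The library values of MRPL19 overlapped those of MRPS11, and those of MRPS25, MRPS18B and MRPS14 overlapped each other, while MRPS11 was below MRPS25 in every library. Among the highest, MRPL27 overlapped MRPL12, MRPL12 overlapped MRPS34 and MRPS34 overlapped MRPL3, and MRPL51 lay above every other member in every library.

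**Figure D1:**
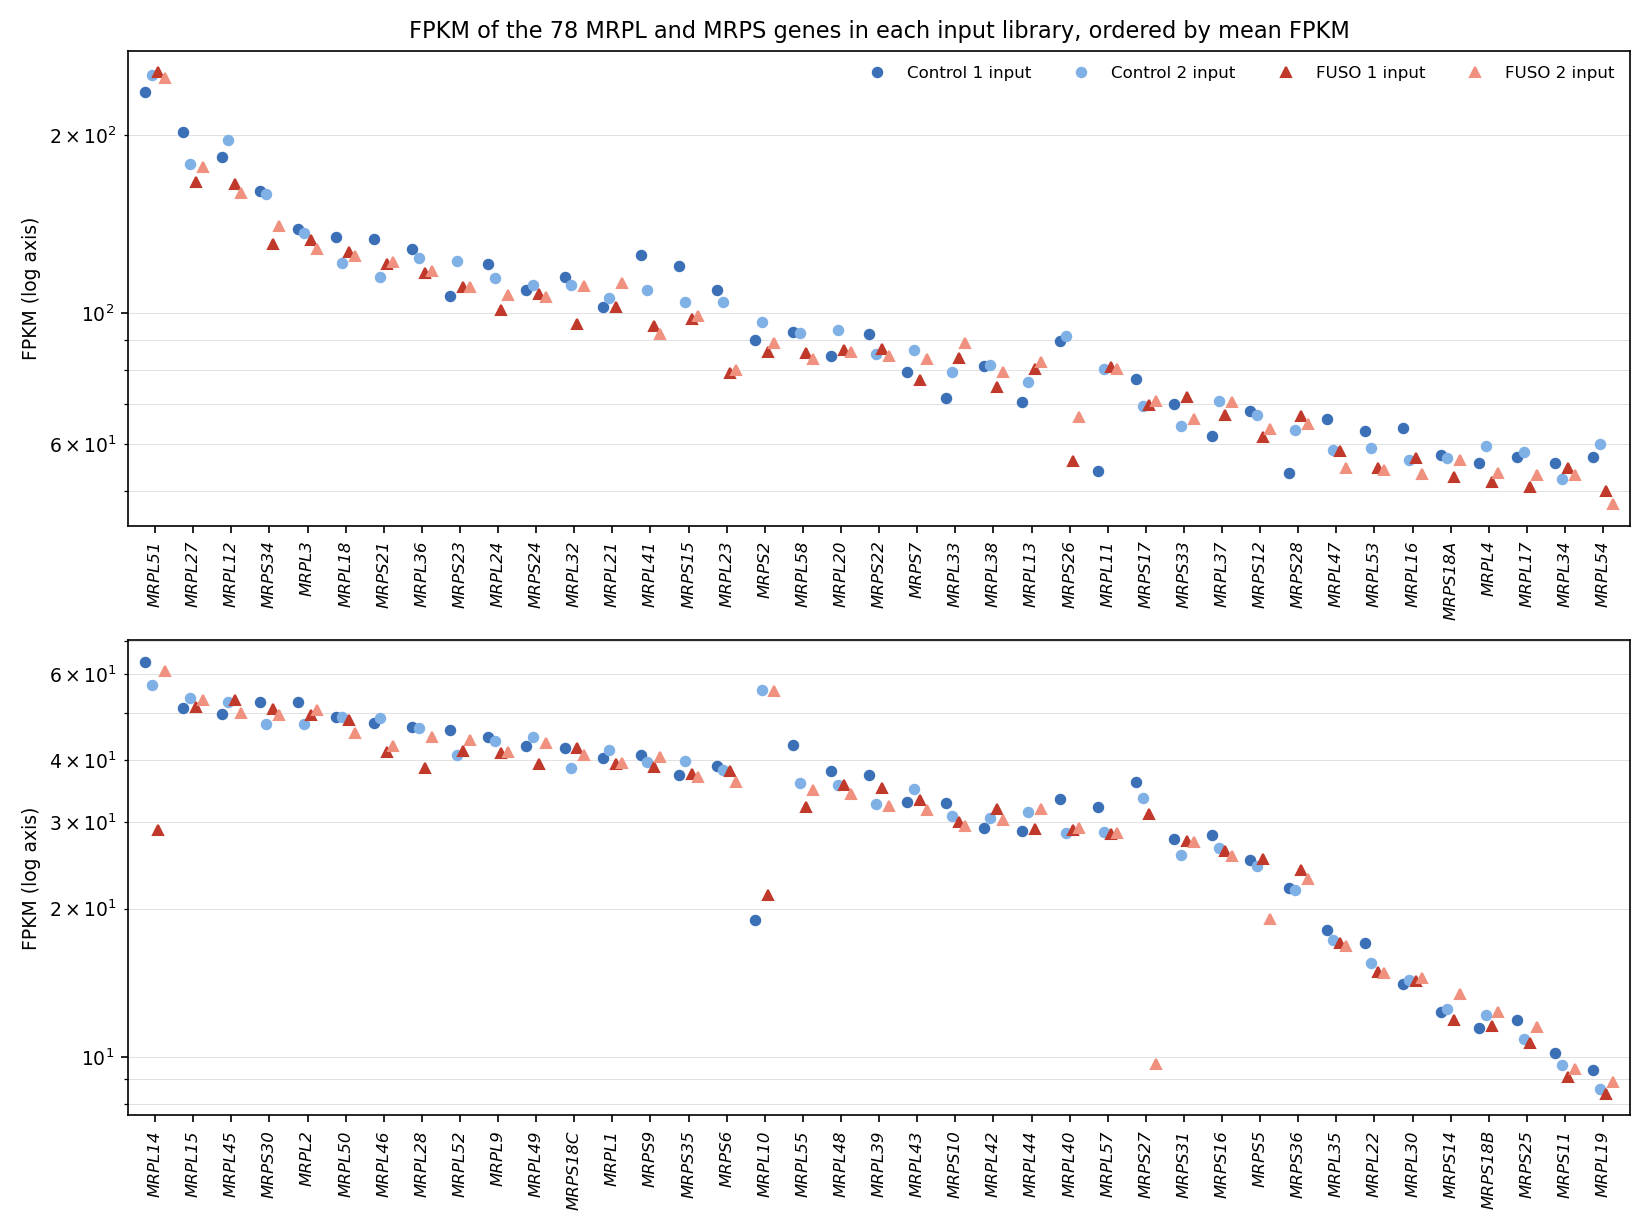
FPKM of each of the 78 genes (horizontal axis, ordered by mean) in the 4 input libraries on a log axis, circles for Control and triangles for FUSO, 1 symbol for each library. The 4 symbols of most genes lie close together, and single symbols of MRPL11, MRPL14 and MRPS27 and both replicate 1 symbols of MRPL10 stand away from the rest.

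The question for these genes was whether 2 h with the bacterium moved their mRNA levels, and the data show small differences that leaned to lower values in FUSO. The sum over the 78 genes was 5158 and 5136 FPKM in the Control libraries and 4788 and 4888 FPKM in the FUSO libraries. The means were 5147 ± 15.6 FPKM and 4838 ± 70.7 FPKM (SD, n = 2), and both Control sums were above both FUSO sums. Without the 3 highest genes the sums were 4536, 4509, 4202 and 4303 FPKM, in the same order. As a share of all FPKM in a library, the members made up 1.05% in each Control library and 0.988% and 0.995% in the FUSO libraries.

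Gene by gene, the median log2 fold change (FUSO minus Control, on log2(FPKM + 1)) was -0.06 with quartiles of -0.13 and 0.00, against 0.01 with quartiles of -0.08 and 0.11 over all genes tested. Of the 78 genes, 58 (74.4%) had a value below 0, against 46.0% of all genes. In 36 members (46.2%) both FUSO libraries were below both Control libraries, a pattern held by 21.1% of all genes, and in 4 members (5.13%) both were above, against 26.1% of all genes. The groups overlapped in the other 38. With quantile normalization the medians were -0.05 for the members and -0.01 for all genes, and 29 members were lower and 7 higher without overlap, against 25.2% and 21.9% of all genes. No test over the members as a set was made, since genes of 1 library are not replicates.

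Few of these differences passed a test against the spread between libraries. In limma fitted over all 11088 genes with Benjamini-Hochberg adjustment, 1 member (1.28%) was lower in FUSO at an adjusted p under 0.05, against 0.135% of all genes, and 0 members were higher, against 0.667%. At an unadjusted p under 0.05, 11 members (14.1%) were lower against 6.45% of all genes, and 1 (1.28%) was higher against 7.04%. With 2 libraries a group, p-values rest on the spread of these libraries as pooled over genes.

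The gene that passed was MRPL23, a large subunit protein of the bacterial type whose counterpart lines the exit of the peptide tunnel. It was at 109 and 104 FPKM in Control and 79.3 and 80.1 FPKM in FUSO. Both FUSO libraries were well below both Control libraries and each pair was tight. The log2 fold change was -0.42 (SE 0.055), with a limma adjusted p of 0.0485. The adjusted p lay just under the threshold and was above it in 10 of 12 alternative settings, where it ran from 0.0508 to 0.490, while it was 0.0165 and 0.0325 without Control 2 and without Control 1.

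The rest of the bacterial-type large subunit proteins, 30 genes with MRPL23, had a median log2 fold change of -0.08, with 23 of 30 below 0. Of the 30, 16 were lower and 2 higher without overlap of the groups, beside 21.1% and 26.1% of all genes tested. The same shares stand beside the counts of the other sets of members below. MRPL12, already named among the most abundant, had a log2 fold change of -0.22 (SE 0.058, adjusted p 0.240). MRPL55 was at 43.0, 36.0, 32.1 and 34.8 FPKM, a log2 fold change of -0.23 (SE 0.0995, adjusted p 0.396). In both genes the Control libraries were the higher ones, and neither passed the test.

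MRPL33 and MRPL13 were the exceptions in this set. MRPL33, a small protein of the large subunit, was at 71.8 and 79.5 FPKM in Control and 84.0 and 89.0 FPKM in FUSO, a log2 fold change of 0.19 (SE 0.072, adjusted p 0.353), and it was the member that was higher at an unadjusted p under 0.05. MRPL13, which binds early in the assembly of the bacterial large subunit, was at 70.6, 76.5, 80.4 and 82.6 FPKM, a log2 fold change of 0.15 (SE 0.063). In both genes every FUSO library exceeded every Control library, without passing the test after adjustment.

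Among the 21 mitochondria-specific proteins of the large subunit, in which MRPS18A and MRPS30 are counted since they sit there despite their symbols, the median was -0.07, with 15 of 21 below 0, 9 lower and 0 higher without overlap. MRPL41 was at 125.3 and 109.4 FPKM in Control and 95.0 and 92.1 FPKM in FUSO, a log2 fold change of -0.32 (SE 0.078, adjusted p 0.224). MRPL54 was at 56.99, 60.04, 50.02 and 47.43 FPKM, a log2 fold change of -0.26 (SE 0.062, adjusted p 0.223). MRPL58, a peptidyl-tRNA hydrolase that frees stalled mitoribosomes and is also built into the large subunit, was at 92.9, 92.4, 85.4 and 83.7 FPKM, a log2 fold change of -0.13 (SE 0.052). All 3 had both Control libraries above both FUSO libraries, and 0 of the 21 genes passed the test after adjustment.

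The small subunit also had more values below 0 than above, and its difference from the large subunit was not tested. Its 16 bacterial-type proteins had a median of -0.06, with 13 of 16 below 0, 8 lower and 1 higher without overlap. The higher gene was MRPS28, at 53.5, 63.4, 67.0 and 64.9 FPKM, a log2 fold change of 0.18 (SE 0.090), in which Control 1 was the low library and Control 2 lay close under both FUSO libraries. The 10 mitochondria-specific proteins had a median of -0.05, with 7 of 10 below 0, 3 lower and 0 higher without overlap.

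Those 3 were MRPS26, MRPS27 and MRPS34. MRPS26 was at 89.6 and 91.3 FPKM in Control and 56.2 and 66.7 FPKM in FUSO, a log2 fold change of -0.56 (SE 0.090) and a limma adjusted p of 0.10. Its FUSO libraries were far below both Control libraries but differed from each other by more than 10 FPKM. With a replicate block it reached an adjusted p of 0.0475, against 0.0622 to 0.412 in its other alternatives, and MRPL23 did not pass there. MRPS34, with the values given among the most abundant genes, had a log2 fold change of -0.24 (SE 0.058, adjusted p 0.226).

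MRPS27, an RNA-binding protein of the pentatricopeptide repeat family, had the largest negative value of the family, and 1 library set it. It was at 36.2, 33.6, 31.1 and 9.67 FPKM, so that FUSO 2 alone was far from the rest. The log2 fold change was -0.96 with a standard error of 0.48 and an adjusted p of 0.444. Without FUSO 1 it was -1.75 with an adjusted p of 0.0404, a fit in which FUSO 2 is the single FUSO library and is assumed to vary like the others.

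A few other genes had discordant libraries of this kind. MRPL10, a protein of the stalk base, was at 18.9 and 55.7 FPKM in Control and 21.3 and 55.3 FPKM in FUSO, so that its low values were those of replicate 1 in both groups. MRPL11, its partner at the stalk base, was at 53.9 FPKM in Control 1 and at 80.4 to 81.0 FPKM in the other 3, and MRPL14 was at 28.9 FPKM in FUSO 1 and at 57.1 to 63.4 FPKM in the other 3. The highest library exceeded the lowest by more than 1.5 times in 5 members (6.41%), these 3 with MRPS26 and MRPS27, against 5.20% of the 5501 genes tested in the same FPKM range. Without Control 2, MRPL11 was called higher and MRPL41 joined MRPL23 among the genes called lower, with adjusted p of 0.0212 for MRPL41 against 0.224 in all 4 libraries.

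MRPS36 carries the name of a small subunit protein but is known to be a subunit of the 2-oxoglutarate dehydrogenase complex and no part of the mitoribosome. It was at 22.1, 21.9, 23.9 and 22.9 FPKM, with both FUSO libraries above both Control libraries. The log2 fold change was 0.09 (SE 0.063, adjusted p 0.557). The 4 genes that were higher without overlap were thus MRPL13, MRPL33, MRPS28 and MRPS36.

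The members also differed in a property that the choice by symbol did not use, the GC content of their mRNA. Their canonical mRNAs were short, with a median of 1242 nt against 3239 nt over the 10673 genes tested that have one (96.3%), and had a median of 5 exons against 9. Their GC content ran from 34.8% to 66.7% with a median of 48.2%, against 49.1%. Across the 78 genes the log2 fold change was lower at higher GC content, with Pearson's r of -0.40 and Spearman's rho of -0.49, against a rho of -0.18 across all genes with a transcript. These are descriptions across genes of the same 4 libraries, which share their depth and base composition, and genes are not independent replicates.

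The 9 members with a GC content of at least 60% were MRPL4, MRPL12, MRPL23, MRPL38, MRPL41, MRPL54, MRPL55, MRPS26 and MRPS34. All 9 had both FUSO libraries below both Control libraries, a pattern held by 21.1% of all genes tested. It was held by 46.9% of the 162 other short genes of that GC content described below. The 9 members hold 7 of the 8 most negative values among the genes without overlap, MRPS27 being the other. Their median log2 fold change was -0.24, against -0.04 over all genes tested of that GC content. Over the 957 other genes of that GC content in the FPKM range of the members it was -0.07. The 69 members below 60% had a median of -0.05, with 27 lower without overlap, beside the same 21.1% of all genes tested. The 4 genes that were higher without overlap all had a GC content under 45%.

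Short GC-rich mRNAs outside the family also had mostly values below 0, though 0 of them passed the adjusted threshold. Of 162 other genes with a GC content of at least 60%, an mRNA under 1200 nt and a level in the FPKM range of the members, 65.4% had a value below 0, the median was -0.07 and 46.9% were lower without overlap. The 7 members of that kind had a median of -0.26, and 7 of 7 were lower without overlap. The difference between the members and the other genes was not tested. A GC correction took the deviation of each library from the mean of the gene over the libraries, on the log2 scale. It removed the trend of these deviations with GC content in each library. After it, the rho over all genes was 0.01 and that over the members -0.29. The corrected medians were -0.23 for the 7 members and -0.03 for the 162 genes, and the part of GC content in the difference was not otherwise tested.

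**Figure D2:**
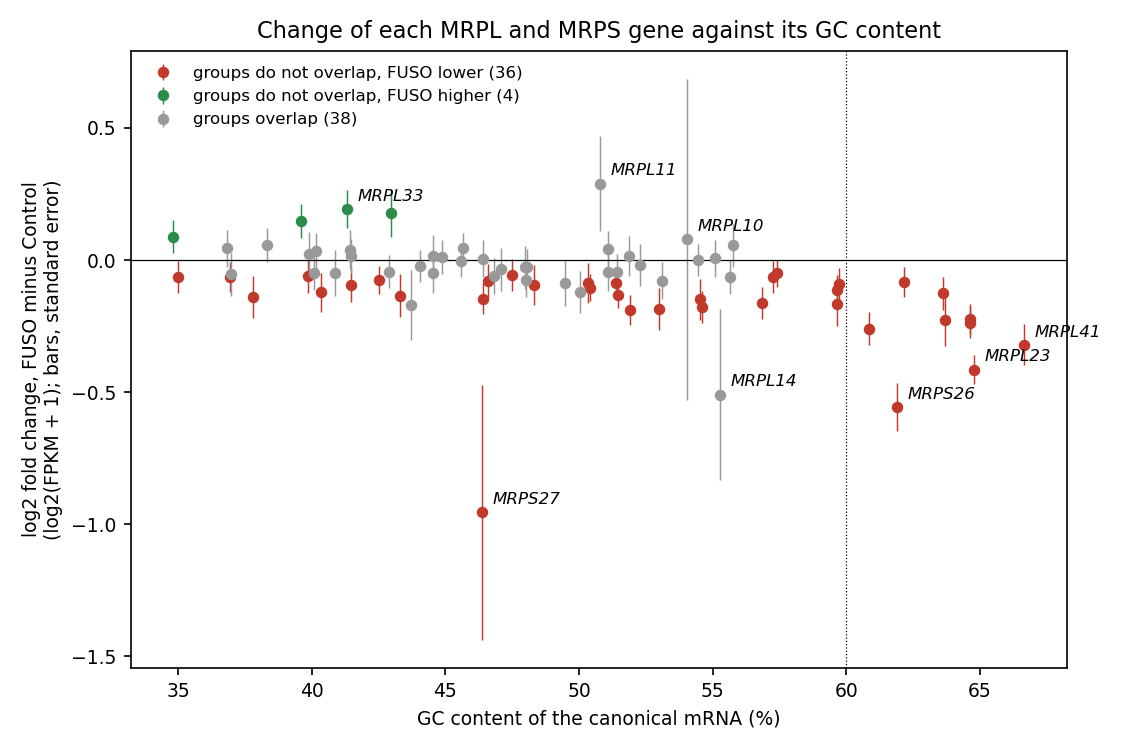
Log2 fold change of each of the 78 genes (vertical axis, FUSO minus Control on log2(FPKM + 1), bars for the standard error of the limma fit) against the GC content of its canonical mRNA, coloured by whether the groups overlap. All 9 genes right of the dotted line at 60% lie below 0, and the 4 genes with both FUSO libraries higher lie under 45%.

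Other genes of mitochondrial gene expression gave a background for these values. Of 68 tested genes for other mitoribosomal proteins, assembly and rRNA maturation, translation factors, aminoacyl-tRNA synthetases and transcription, 0 passed the adjusted threshold in either direction, 46 had a value below 0 and the median log2 fold change was -0.04. GADD45GIP1, a large subunit protein whose symbol falls outside the rule, was at 164 and 147 FPKM in Control and 117 and 118 FPKM in FUSO, a log2 fold change of -0.40 (SE 0.068, adjusted p 0.106). POLRMT, the mitochondrial RNA polymerase, was at 35.6, 35.1, 27.6 and 29.9 FPKM, a log2 fold change of -0.29 (SE 0.066, adjusted p 0.207). Both Control libraries exceeded both FUSO libraries in these genes.

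MTERF4, which guides rRNA methylation during large subunit assembly, was at 4.39, 9.20, 9.32 and 8.14 FPKM, so that Control 1 alone was low and the groups overlapped (log2 fold change 0.39, SE 0.29, adjusted p 0.580). The 82 tested genes of the cytosolic ribosome, which is built from a separate protein set, had a median log2 fold change of 0.00. Of them, 14 were lower and 18 higher without overlap, beside 21.1% and 26.1% of all genes tested. At a limma adjusted p under 0.05, 1 of the 82 was called lower and 0 higher, beside 0.135% and 0.667% of all genes tested.

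The m6A lists answered a second question, which of these mRNAs carried a peak and whether the peaks differed between the groups. A peak in a list is a called enrichment of IP over input. The lists hold no value where no peak was called, so an absent peak does not measure absence of the mark. The 4 lists held 76, 81, 78 and 71 peaks named for members, in the order Control 1, Control 2, FUSO 1 and FUSO 2. They covered 57, 58, 60 and 60 of the 78 genes, 73.1% to 76.9%, against 74.9% to 77.6% of all genes tested. Both FUSO lists thus held a few more of the genes than both Control lists, while the numbers of peaks overlapped between the groups. With peaks of p at most 1e-05 the lists covered 56, 54, 56 and 56 of the genes, and the groups no longer separated.

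The genes with a peak were nearly the same in every list. In all, 61 members (78.2%) had a peak in at least 1 list, against 83.9% of all genes tested and 86.0% of those in the same FPKM range, and 57 had one in all 4. The 4 that varied were MRPL52 with a peak in 3 lists, MRPS10 in both FUSO lists, MRPL3 in FUSO 1 and MRPL11 in FUSO 2. The cytosolic ribosomal protein genes differed from both, with a peak in 30 of 82 (36.6%).

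The 17 members without a peak in any list were MRPL1, MRPL13, MRPL21, MRPL23, MRPL24, MRPL28, MRPL30, MRPL39, MRPL42, MRPL47, MRPL48, MRPS14, MRPS18B, MRPS18C, MRPS22, MRPS35 and MRPS36. They include MRPL23, the gene that narrowly passed the adjusted threshold in the fit as reported. Their mean levels ran from 11.9 to 111 FPKM, within the range of the 57 genes with a peak in every list, which was 8.83 to 248 FPKM. MRPL21 had 0 GGAC in its canonical mRNA, but MRPL28 had 13 and MRPL42, with an mRNA of 15557 nt, had 25. The median log2 fold change was -0.04 in the 17 genes without a peak and -0.08 in the 57 with a peak in every list.

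**Figure D3:**
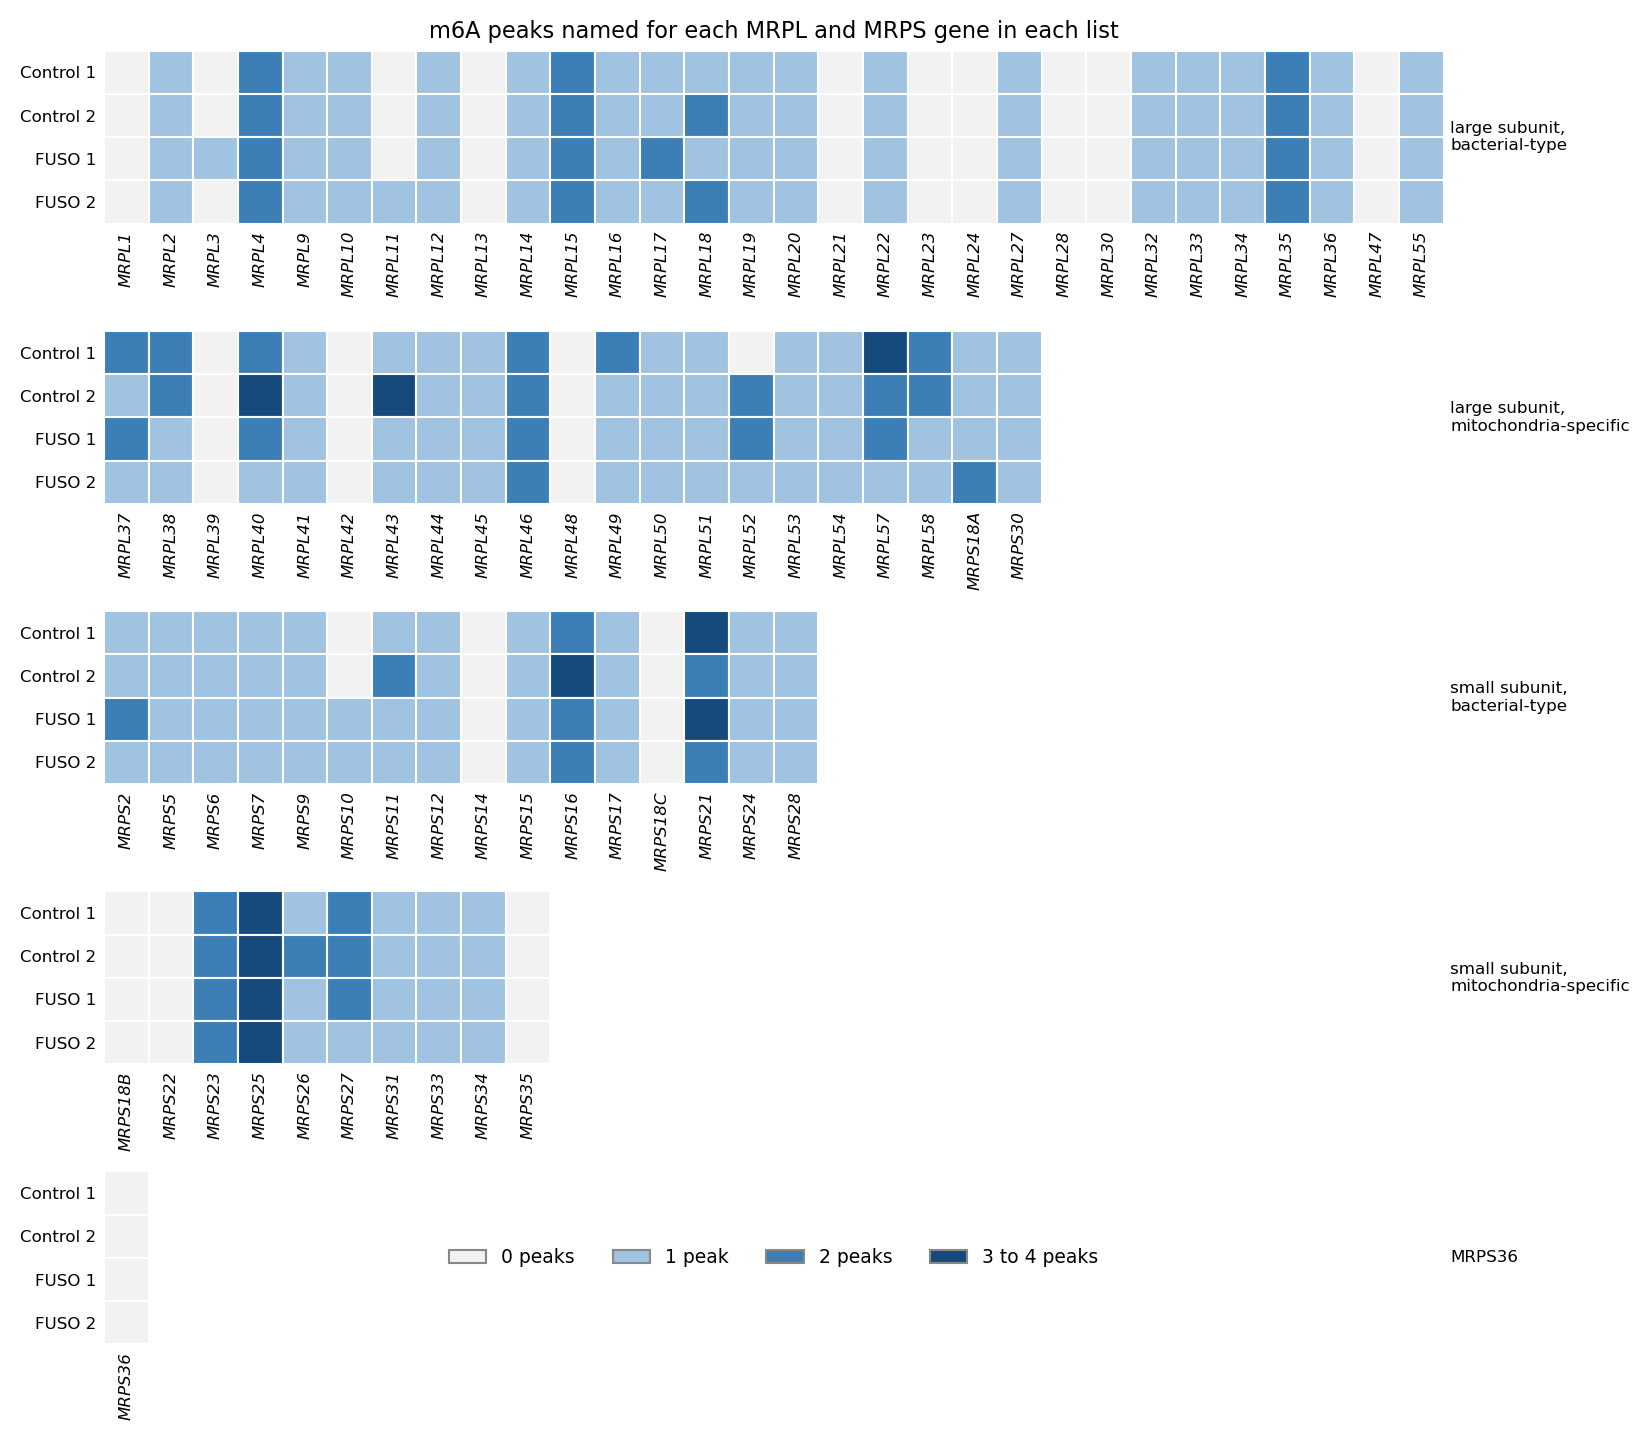
Number of m6A peaks named for each of the 78 genes (columns) in each of the 4 lists (rows), in 5 panels by subunit and kind of protein, with darker squares for more peaks. Columns are mostly of 1 shade from top to bottom, 17 are empty throughout, and MRPS10 is filled in the FUSO rows alone.

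Members without a peak had a lower GC content than those with one. Their median GC content was 40.9%, against 50.4% in the 57 genes, and their median mRNA length was 1354 nt against 1204 nt. Among members under 45% GC, 16 of 27 (59.3%) had a peak in at least 1 list, against 83.2% of other genes in the same FPKM and GC range. In the 4 higher GC ranges 83.3% to 92.9% of the members had one, beside 86.5% to 88.5% of the other genes. By length, 23 of 26 members under 1000 nt (88.5%) had a peak against 69.6% of other genes, whereas from 1000 to 2000 nt it was 23 of 34 (67.6%) against 79.6%.

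**Figure D4:**
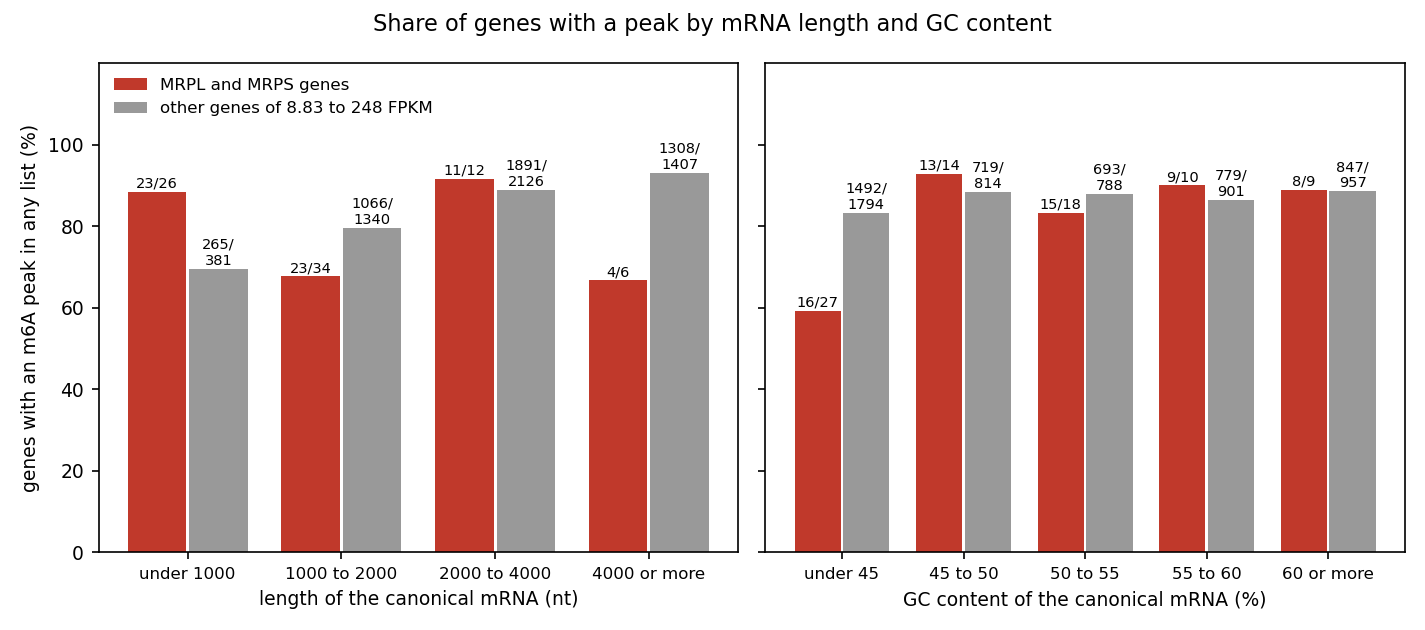
Share of genes with an m6A peak in any list (vertical axis) by mRNA length (left) and GC content (right), red for the members and grey for other genes in their FPKM range, with the number with a peak over the number of genes on each bar. Members under 1000 nt had a peak more often than other genes (88.5% against 69.6%) and members under 45% GC less often (59.3% against 83.2%).

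Peaks of the 4 lists that shared exon bases on 1 strand were joined into regions, and the members had 88 of 22001. Of these, 65 (73.9%) had a peak in all 4 lists, against 51.5% of all regions, and 13 (14.8%) had one in a single list, against 25.6%. The comparison was not matched for level, with a median of 53.1 FPKM in the members and 9.45 FPKM over all genes tested. The part of level in it was not tested. The 65 regions lay in 56 genes, 48 with 1 region, 7 with 2 and 1 with 3. Their median length was 538 nt, 45 spanned more than 1 exon, 60 (92.3%) held GGAC and 65 held DRACH. The lowest p-value over the lists had a median of 4e-59 in these regions and of 0.0015 in those of a single list.

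The strongest were those of the sequences printed first. MRPL36 and MRPL17, bacterial-type proteins of the large subunit, and MRPL27 had a p-value listed at 0 in all 4 lists. MRPL57 and MRPL14 were at 0 in 3 lists, with 9e-301 and 1e-250 in FUSO 2, and MRPL32, whose precursor is cut by the m-AAA protease before it joins the ribosome, was at 0 in 3 and 9e-303 in Control 1. MRPL12 was at 0 in both Control lists and at 1e-201 and 1e-110 in the FUSO lists. MRPS34 was at 1e-256 and 9e-304 in the Control lists and at 1e-192 and 1e-161 in the FUSO lists. The p-values of MRPL12 and MRPS34 were thus larger in both FUSO lists than in both Control lists, in genes whose input level was also lower there, and such p-values become smaller with depth and level, so they do not measure how many molecules were methylated.

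The genes with more than 1 region in all lists were MRPL4, MRPL15, MRPL35, MRPL46, MRPS16, MRPS21 and MRPS23 with 2 and MRPS25 with 3, named here to account for that count. In MRPL35 a region in the 3′UTR with its midpoint 1807 nt past the stop codon was at 1e-143 and 1e-104 in Control and at 1e-160 and 1e-115 in FUSO (p-values). Its region in the CDS was weaker, at 5.9e-06, 4.2e-08, 9.1e-10 and 4e-19. In MRPL46 the CDS region nearer to the stop codon was strong in every list, from 1e-108 to 5e-95, while its other CDS region was at 1.7e-08 and 2.5e-13 in Control and 0.00021 and 0.00023 in FUSO. In MRPS23 the CDS region ran from 5e-21 to 4e-13 and the 3′UTR region from 2.5e-11 to 9.3e-06. A gene could thus hold a strong and a weak region side by side, each called in all 4 lists.

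Where on the mRNA the peaks lay also set the members apart in the counts. Shares of position were taken over the peaks that could be placed on the canonical mRNA. Over the 4 lists a mean of 42.8% of placed member peaks had their midpoint within 100 nt of the stop codon, against 16.8% of all placed peaks. The member shares were 40.6% and 40.9% in the Control lists and 43.8% and 45.9% in the FUSO lists. The CDS beyond that window held 33.7% against 45.4%, the 3′UTR 23.1% against 33.8% and the 5′UTR 0.379% against 3.98%. On short mRNAs any midpoint is nearer to the stop codon, and for mRNAs under 1000 nt the shares were 56.0% of 91 member peaks and 42.1% of 995 other peaks. For 1000 to 2000 nt they were 36.9% of 84 and 26.7% of 6068. For 2000 to 4000 nt they were 25% of 56 and 18.02% of 19106, and from 4000 nt 54.2% of 24 and 13.2% of 31736. These counts take the placed peaks of the 4 lists together, so the same region can be counted more than once and the peaks are not independent. Only 4 members in the longest range had a peak. The member share was the higher one in each length range. When the start of the peak set its place in all mRNAs, the share at the stop codon was 10.2% for the members. For all peaks it was then 11.1%. With midpoints within 50 nt of the stop codon the shares were 26.8% and 8.85%. The contrast was thus seen with the midpoint and not with the start. Member peaks were also longer, and the part of peak length in this was not tested.

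Member peaks were longer, with a mean over lists of the median length of 408 nt against 305 nt, and 54.3% of them crossed an exon junction against 34.4%. GGAC was present in 80.5% of member peaks and in 73.2% of all peaks, and DRACH in 96.8% and 95.8%. Of the 65 regions found in all lists, 53 could be placed on the canonical mRNA, 20 at the stop codon, 21 in the CDS, 12 in the 3′UTR and 0 in the 5′UTR. Of these 53, 42 had their midpoint within 400 nt of the stop codon.

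**Figure D5:**
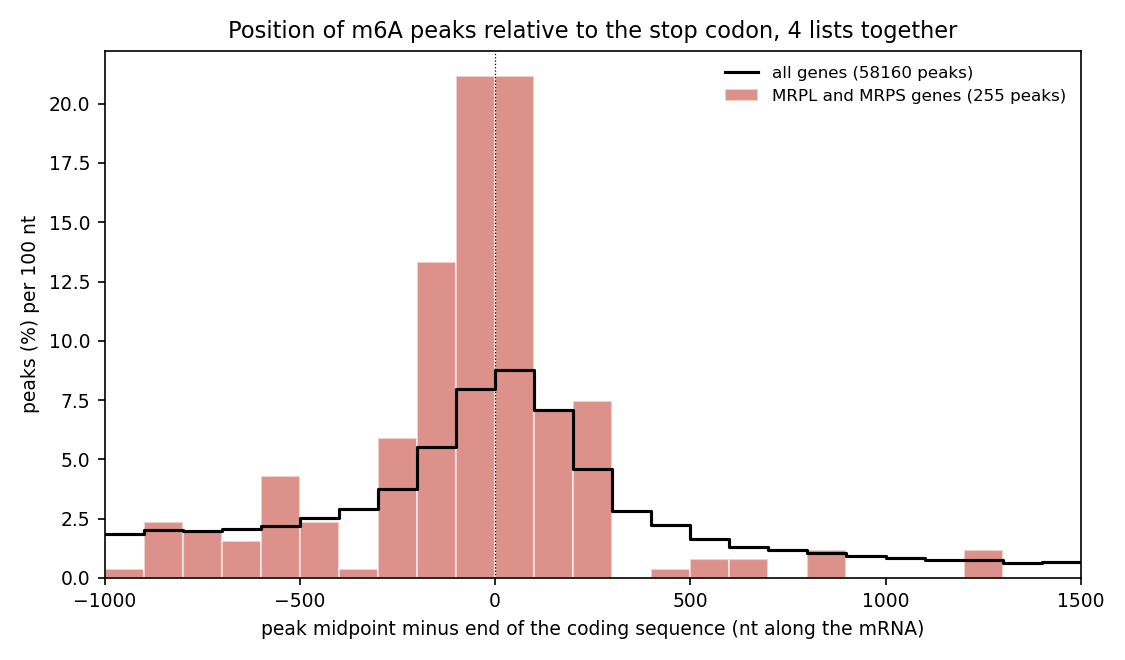
Distance of peak midpoints from the end of the coding sequence along the mRNA (horizontal axis, nt, negative before the stop codon) as a share of the placed peaks per 100 nt, 4 lists together, bars for the 255 member peaks and a line for all 58160 peaks. Each of the bins on either side of the stop codon holds 21.2% of the member peaks, against 7.96% and 8.79% of all peaks.

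Between the groups, 2 of the 88 regions (2.27%) had a peak in both Control lists and in neither FUSO list, against 2.64% of all regions, and 1 (1.14%) had the reverse, against 2.38%. These shares are near those of all regions. The region of MRPL58 (chr17:73008759-73008909) was called in Control 1 with a p-value of 3.5e-07 and in Control 2 with 1.5e-05, and 128 of its 151 bases were CDS. The region of MRPL38, a large subunit protein related to phosphatidylethanolamine-binding proteins (chr17:73900647-73900973), had p-values of 1.3e-11 and 2.7e-07, and 221 of its 238 bases were CDS. Both genes kept a second region in all 4 lists, that of MRPL38 near the stop codon with p-values from 2e-50 to 6.3e-34. MRPL38 shared 1281 exon bases with another annotated gene of the same strand, so the name on its peaks is uncertain.

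The region of MRPS10, a small subunit protein of the bacterial type, lay in the 3′UTR (chr6:42175727-42175876) and had p-values of 0.00022 and 0.0012 in the FUSO lists. These are weak beside the median of the regions found in all lists, and MRPS10 had 0 peaks in the Control lists. Its level was 32.80, 30.84, 29.96 and 29.42 FPKM, with both FUSO libraries the lower ones (log2 fold change -0.10, SE 0.064, adjusted p 0.532). Of the 3 regions, that of MRPL58 was lost from the count when peaks had to overlap by 50% of each, and those of MRPL58 and MRPS10 when peaks needed a p-value of at most 1e-05. With that limit the members had 2 Control regions, those of MRPL38 and MRPL46.

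The regions that differed between the groups also differed in base composition, as did the lists. The Control regions of MRPL38 and MRPL58 had a GC content of 71.4% and 67.5%, and the FUSO region of MRPS10 one of 31.3%. The mean GC content of member peaks was 51.9% ± 0.0261 in the Control lists and 49.9% ± 0.468 in the FUSO lists (SD, n = 2), and that of all peaks 52.1% ± 0.0785 and 50.7% ± 0.234. Thus the whole lists moved in the same direction as the members, and the part of base composition in the 3 regions was not tested.

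Some of the regions that varied among the lists covered a start codon. Of the 88 regions, 24 covered the start codon of the canonical mRNA, and 17 of those were in all 4 lists, beside 65 of all 88. The other 7 lay in MRPL37, MRPL38, MRPL40, MRPL49, MRPL52, MRPL58 and MRPS26, and their GC content was 60% to 78.3%. The GC content of the 17 regions in all 4 lists ran from 38.1% to 68.5%, and those of MRPL2, MRPL15, MRPL41 and MRPL54 were also above 60%. The 7 varying regions were looked at after their values were seen. In the same order Control 1 to FUSO 2, MRPL37 had its peak in Control 1 and FUSO 1, MRPL40 in all but FUSO 2, MRPL49 in Control 1, MRPL52 in Control 2 and FUSO 1, and MRPS26 in Control 2. Apart from MRPL38 and MRPL58, none of the 7 separated the groups.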

How the data were processed

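Input and IP libraries of HCT116 cells were grouped from the sample labels. Per the labels, the submitters' processing notes name Trim Galore 0.3.3, HISAT2 2.1.0, StringTie and hg19. The deposited FPKM were computed by the authors from the input libraries, 1 column for each library. The 4 deposited peak lists were called for each replicate and held 1 score per peak, read here as the authors' p-value before correction. The methods name MACS2, whereas the layout with exon blocks is that of exomePeak, and the program was not settled.

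Genes whose mean reached 1 FPKM entered the test on log2(FPKM + 1) with limma 3.58.1 (trend, no block, R 4.3.3) and Benjamini-Hochberg adjustment over all of them, with a call at an adjusted p under 0.05. A fold change on that scale understates the change of low genes. The fit was tested on simulated data. FPKM are not counts, so no count model was used, and depth was unknown. The study's methods call the libraries biological replicates, and p-values compare the difference of the groups with the spread between them, as pooled over genes. Placing of peaks used Python 3.11.15 and GENCODE release 44 on GRCh37. A peak was placed when 90% of its bases lay on the canonical transcript, and regions joined peaks that shared at least 1 bp. DRACH and GGAC were sought on the strand of the gene, and matches may overlap.

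Named were members past the threshold, up to 8 of the largest rises and falls without overlap of groups, the 5 highest and 5 lowest, those with a region in 1 treatment, the 8 with the lowest peak p-values and the 3 largest changes in the pathway lists; genes with discordant libraries and regions over start codons were named after their values were seen. The members and lists were chosen with earlier results of these data known. Alternatives were another pseudocount, no filter, quantile normalization, median centring, no trend, a GC correction, a replicate block, each library left out, stricter peaks, 50% reciprocal overlap and other placings of peaks. Family members have pseudogenes with near-identical sequence, and how the authors assigned shared fragments was not given in the sources used here.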

Additional observations from a re-analysis of the deposited data

How the results depend on the processing

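The number of members called lower at an adjusted p under 0.05, 1 in the fit as reported, was 0 with a pseudocount of 0.1, without the filter, with quantile normalization, with median centring, without the trend, with the GC correction and with the replicate block and GC correction together, and 0 to 2 when 1 library was left out. The number called higher was 0, and 0 to 1 when 1 library was left out. Without overlap of the groups, 29 members were lower and 7 higher with quantile normalization, against 36 and 4 as reported, beside 25.2% and 21.9% of all genes. When 1 library was left out, where fewer libraries have to be separated, 43 to 53 were lower and 9 to 17 higher, beside 30.6% to 37.2% and 36.4% to 42.1% of all genes. At an unadjusted p, 11 members were lower and 1 higher as reported, 8 and 2 with quantile normalization, 12 and 0 with median centring, 12 and 0 with the GC correction and 7 and 0 without the trend, and without Control 2 they were 20 and 5. The median log2 fold change, -0.064, was -0.088 with median centring, -0.085 with the GC correction and the same with the replicate block added, and -0.091 to -0.054 when 1 library was left out, below 0 in each. Its gap to the median of all genes, -0.077, was the same with median centring, -0.085 with the GC correction and -0.047 with quantile normalization, where the members' median was -0.053. The share of members with a peak was 3.21 points higher in FUSO, 1.28 with peaks of p at most 1e-05 and 2.56 to 3.85 when 1 list was left out. Regions in both Control lists alone numbered 1 with 50% reciprocal overlap (2.61% of all regions) and 2 to 8 when 1 list was left out (4.44% to 11.3% of all), and regions in both FUSO lists alone 0 with p at most 1e-05 (2.25% of all) and 1 to 4 when 1 list was left out (4.31% to 11.3% of all). The share of placed peaks at the stop codon was 10.2% when the start of the peak set its place, against 11.1% of all placed peaks. It was 26.8% within 50 nt, against 8.85%. The motif share was 96.8% for DRACH. The cause of these shifts was not tested. The leave-one-out values of the total FPKM, of the peak positions and of the groups without overlap, and the comparison with short GC-rich genes, were added after seeing the data.

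The labels number the libraries 1 and 2 in each group, and a fit with the replicate block gave MRPL23 an adjusted p of 0.0771 and MRPS26 one of 0.0475, with 1 member called lower as without it. Same-numbered libraries hardly deviated together, with a correlation of 0.0243 over 11088 genes, of 0.449 over the 78 members and of 0.0354 over the members without MRPL10, so the number was not read as a pairing. With 2 libraries a group and no counts, differences of the size seen in most members could not be told from the spread between libraries.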
